A study of Drosophila melanogaster with 3 samples.

Results

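The last day of larval life in the lymph gland, the blood-forming organ of the Drosophila larva, was described by setting the single 120 h AEL library (hours after egg laying) against the single 96 h AEL library. The genes described are the 7704 of the 17490 genes in the files that reached at least 1 CPM (counts per 1000000 counts of the library) in either library. Of these, 5963 had at least 10 CPM in either library after scaling and are called well counted, and the other 1741 were below 10 CPM in both. At the edge of the choice, hoe2 with 30 counts at 120 h AEL and 38 counts at 96 h AEL lay just inside at 1.00 CPM, and CG13893 with 34 counts and 9 counts lay just outside at 0.992 CPM.

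Both libraries came from Oregon-R larvae, a wild-type laboratory strain, kept in steady state, that is without wasp infestation, and by their labels they differ in age: one was taken at 120 h AEL and one at 96 h AEL. The remaining library of the series, at 72 h AEL, is given only as an earlier level. According to the methods of the study, primary lobes from many larvae were pooled once posterior lobes, ring gland and dorsal vessel had been cut away. For bulk sequencing RNA was taken from lobes that were not dissociated. The study compared the 3 ages to follow how blood cells, called hemocytes, mature in the organ.

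The primary lobe holds prohemocytes, the undifferentiated progenitors, which are kept in an inner medullary zone by a small niche, the posterior signaling center (PSC). During the last larval stages progenitors give rise to plasmatocytes, the phagocytic cells that also make much of the basement membrane, and to crystal cells, which carry prophenoloxidase for melanization. Lamellocytes, which wrap large foreign bodies, are rare in unchallenged glands. The end of larval life is also the time when the steroid hormone ecdysone climbs in the larva and prepares the organ to disperse.

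The libraries held 34278733 counts at 120 h AEL and 37922500 counts at 96 h AEL, and TMM scaling factors were 0.971 and 0.989. A count of 3, the floor used below, was worth 0.0875 CPM at 120 h AEL and 0.0791 CPM at 96 h AEL. Among genes with 1 to 20 counts, 70.9% at 120 h AEL and 72.0% at 96 h AEL had an even count, so both mates of a read pair were probably counted, and the 95% intervals of folds were taken on halved counts. With 1 library at each age there is no replicate check and no test: intervals cover counting error only, and each difference is one between these libraries and not yet one between ages. In bulk RNA, more or fewer cells of a type and more or less RNA in each cell cannot be told apart. Genes named below that the naming rule of the methods does not give, such as examples from lists with no member past 1.5-fold, were chosen after their values were seen.

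Most genes kept their level over this step. The median log2 ratio of 120 over 96 h AEL was -0.00 over the well counted genes, 90% of them lay between -0.34 and 0.44, and 79.1% differed by less than 1.2-fold. At least 1.5-fold higher at 120 h AEL were 181 well counted genes (3.04%), and at least 1.5-fold lower were 77 (1.29%). At 2-fold the numbers were 67 higher (1.12%) and 22 lower (0.369%). At 4-fold, counted over all 7704 genes, 17 were higher (0.221%) and 6 were lower (0.0779%), of which 16 and 2 were well counted. Any size of difference was shared almost evenly, with 2947 well counted genes higher (49.4%) and 3016 lower (50.6%). For scale, between 96 and 72 h AEL, the 2-fold counts at 96 h AEL were 332 well counted genes higher (5.15%) and 638 lower (9.9%). The halved-count interval excluded no change for each of the 258 genes past 1.5-fold. This follows from the filter, since at 10 CPM or more a 1.5-fold ratio exceeds counting error, so it lends the calls no support. The gene just past 1.5-fold was Tpi with a log2 ratio of 0.59 from 5703 counts at 120 h AEL and 4270 counts at 96 h AEL, and the one just short of it was NimB4 with 0.58 from 23942 and 18044 counts.

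**Figure D1:**
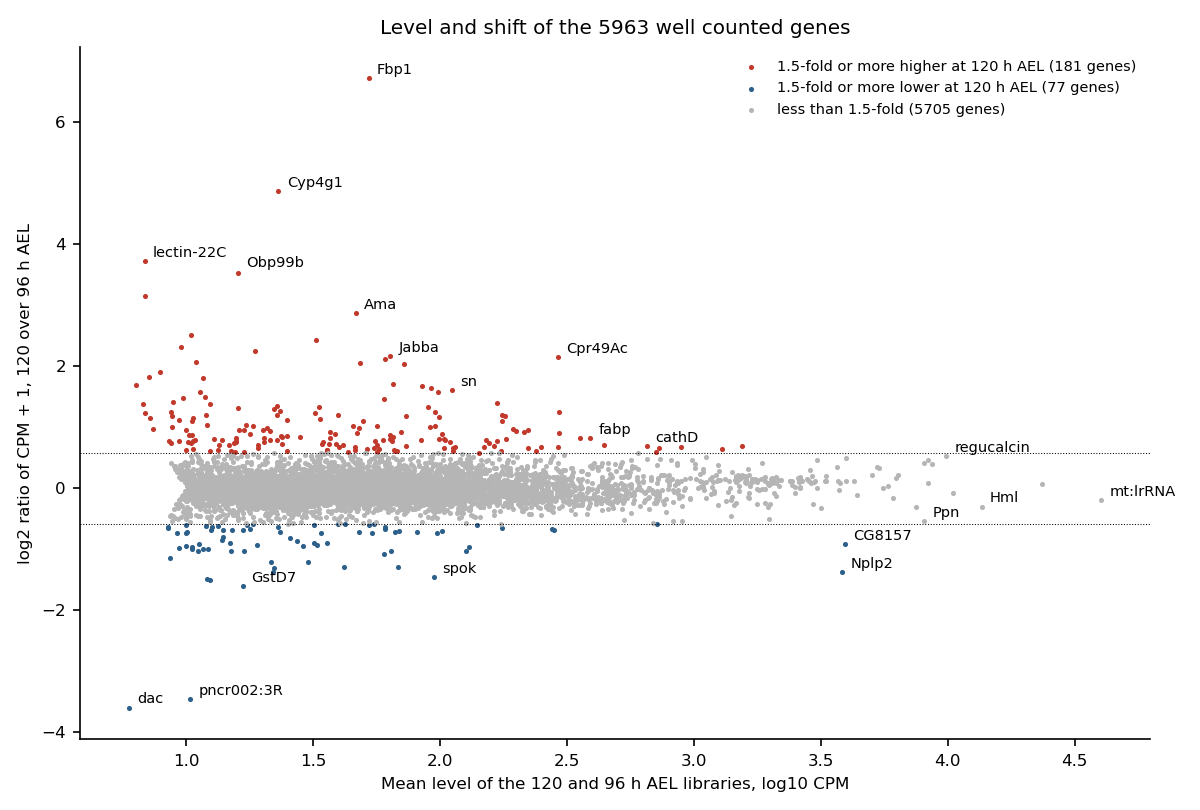
Each of the 5963 well counted genes is a point, with the mean level of both libraries (log10 CPM) on the horizontal axis and the log2 ratio of CPM + 1, 120 over 96 h AEL, on the vertical axis; dotted lines mark 1.5-fold. The 181 genes above the upper line spread further from it than the 77 below the lower line, and among the most abundant genes Nplp2 and CG8157 stand alone below it.

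The 12 largest ratios included genes known from fat body and oenocytes, a lipid droplet gene and several genes with no known role. Fbp1, which encodes the fat body receptor for larval serum proteins (chromosome 3L, 14094589 to 14098053, reverse strand in the BDGP6.54 build), reached 3479 counts at 120 h AEL, against 0 counts at 96 h AEL and 10 at 72 h AEL. Against the floor of 3 counts it was at least 1308-fold higher at 120 h AEL. Cyp4g1, the P450 that makes cuticular hydrocarbons in oenocytes (chromosome X, 467057 to 469335, reverse strand), had 1514 counts at 120 h AEL, against 22 counts at 96 h AEL, which is 77.6-fold higher at 120 h AEL (counting interval 43.1 to 156.1). At 72 h AEL it had stood at 22.1 CPM, so the 96 h AEL library was the low one of the 3. The C-type lectin gene lectin-22C (chromosome 2L, 2036409 to 2037265, reverse strand) was counted 452 times at 120 h AEL and 4 times at 96 h AEL, 127-fold, interval 34.9 to 1058. Obp99b, of the odorant-binding protein family, had 1005 counts at 120 h AEL, against 64 counts at 96 h AEL, or 17.7-fold higher at 120 h AEL (counting interval 12.4 to 26.1).

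Ama, whose product amalgam is a secreted immunoglobulin-domain protein of cell adhesion (chromosome 3R, 6762593 to 6765261, forward strand), had 82.6 CPM at 120 h AEL, against 10.4 CPM at 96 h AEL, and 3.82 CPM at 72 h AEL. It was 7.96-fold higher at 120 h AEL (counting interval 6.86 to 9.32) and so climbed through all 3 libraries. Jabba, which encodes a lipid droplet protein (chromosome 2R, 18757074 to 18761082, reverse strand), had 104.4 CPM at 120 h AEL, against 22.5 CPM at 96 h AEL, a difference of 4.63-fold, interval 4.16 to 5.16. Cpr49Ac, a member of a cuticular protein family, was the most abundant of the genes past 4-fold, with 475 CPM at 120 h AEL, against 107 CPM at 96 h AEL, and was 4.46-fold higher at 120 h AEL (counting interval 4.24 to 4.68). Mct1, a monocarboxylate transporter gene by its name, had 1048 counts at 120 h AEL, against 218 counts at 96 h AEL, 5.42-fold, interval 4.402 to 6.73. The rest of the 12 largest ratios belonged to uncharacterised genes: CG34166 (438 against 22 counts), CG2233 (612 against 90 counts), CG4950 (1839 against 354 counts) and CG45095 (551 against 94 counts), each at 120 against 96 h AEL. Of these CG2233 had 14019 counts at 72 h AEL and CG4950 had none.

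At levels of 100 CPM or more, where counting error is small, 56 of 1776 genes were at least 1.5-fold higher at 120 h AEL. Among the 10 largest ratios at this level, besides Fbp1, Jabba and Cpr49Ac, were CG6910, the inositol oxygenase gene (117 CPM at 120 h AEL, against 27.6 CPM at 96 h AEL, 4.24-fold, interval 3.84 to 4.68). Another was Hsp23, a small heat shock protein gene (100.2 CPM at 120 h AEL, against 29.96 CPM at 96 h AEL, 3.35-fold, interval 3.04 to 3.69). The gene sn, which encodes the actin-bundling protein fascin, had 168 CPM at 120 h AEL, against 54.2 CPM at 96 h AEL, and was 3.104-fold higher at 120 h AEL (counting interval 2.89 to 3.34). CG7470, the pyrroline-5-carboxylate synthase of proline and ornithine synthesis, had 147 CPM at 120 h AEL, against 48.7 CPM at 96 h AEL, 3.02-fold, interval 2.802 to 3.27. Ect3, a predicted beta-galactosidase gene, was 3.27-fold higher at 120 h AEL (counting interval 3.003 to 3.55). The uncharacterised CG14946 and CG8501 were 3.17-fold and 2.66-fold higher. CG14946 stood at 139.7 CPM at 120 h AEL and 44.03 CPM at 96 h AEL, after 10 counts in all at 72 h AEL.

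**Figure D2:**
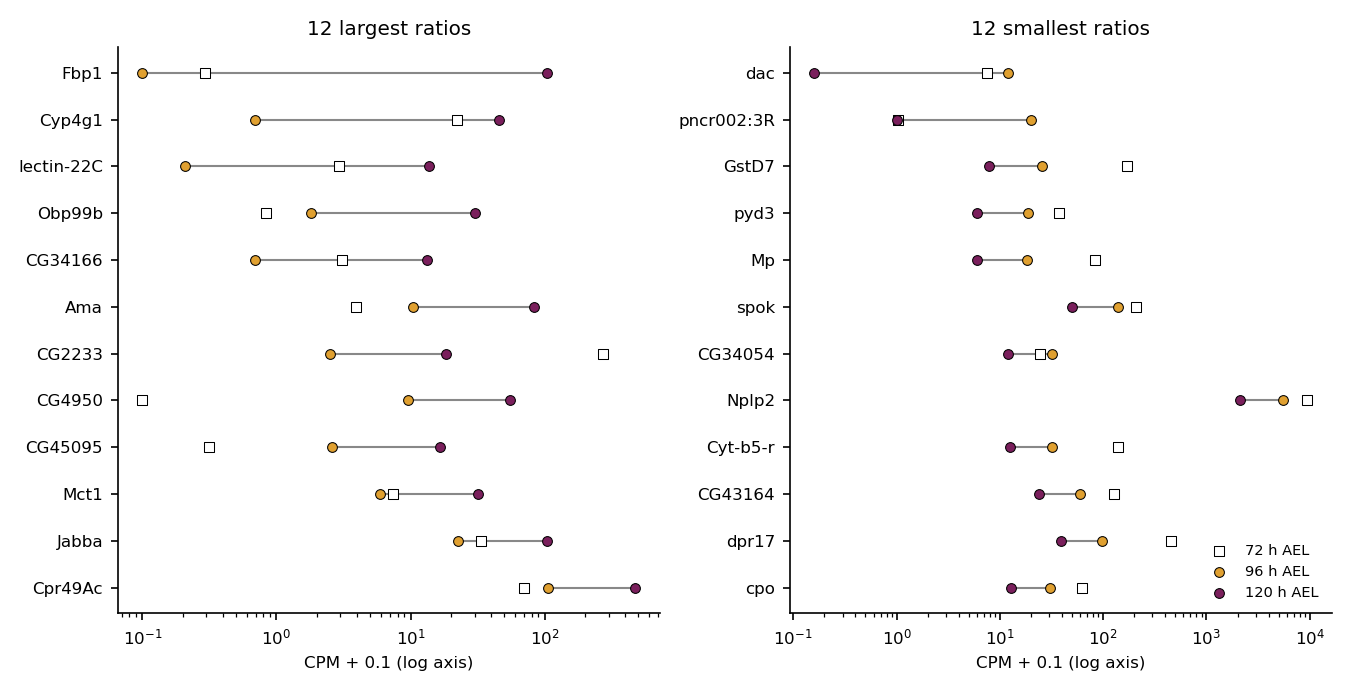
Scaled level (CPM + 0.1, log axis) of the genes with the 12 largest (left) and 12 smallest (right) ratios; open squares are the 72 h AEL, orange circles the 96 h AEL and purple circles the 120 h AEL library, and grey lines join the last 2. In the left panel CG2233 alone had its highest level at 72 h AEL, and in the right panel 9 of 12 genes were already lower at 96 than at 72 h AEL, the exceptions being dac, pncr002:3R and CG34054.

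The 12 smallest ratios included a gene of eye development, a gene of hormone synthesis and the abundant transcript Nplp2. The gene dac, which encodes a nuclear factor of eye and leg development (chromosome 2L, 16466512 to 16485998, reverse strand), had 2 counts at 120 h AEL, against 444 counts at 96 h AEL, a count ratio of 197-fold with a 95% interval of 34.98 to 7811. A noncoding RNA gene, pncr002:3R (chromosome 3R, 6699560 to 6700164, reverse strand), had 30 counts at 120 h AEL, against 744 counts at 96 h AEL, 21.995-fold lower at 120 h AEL (counting interval 13.2 to 39.7). GstD7, a glutathione transferase gene, had 7.75 CPM at 120 h AEL, against 25.7 CPM at 96 h AEL and was 3.31-fold lower at 120 h AEL (counting interval 2.72 to 4.06). The gene pyd3, for beta-alanine synthase, had 5.95 CPM at 120 h AEL, against 18.8 CPM at 96 h AEL. Mp, which encodes the collagen of the multiplexin type, had 5.86 CPM at 120 h AEL, against 18.3 CPM at 96 h AEL. They were 3.16-fold and 3.12-fold lower.

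The most abundant gene of the 22 that were at least 2-fold lower was Nplp2, annotated as a neuropeptide-like precursor. It had 71088 counts at 120 h AEL, against 206978 counts at 96 h AEL, or 2136 CPM at 120 h AEL, against 5517 CPM at 96 h AEL, and was 2.58-fold lower at 120 h AEL (counting interval 2.55 to 2.61). At 72 h AEL it had 9489.7 CPM, so it was lower at each later age. CG8157, uncharacterised and of similar abundance (chromosome 2R, 15325503 to 15326386, reverse strand), had 2714 CPM at 120 h AEL, against 5132 CPM at 96 h AEL, and was 1.89-fold lower at 120 h AEL (counting interval 1.87 to 1.91). The calpain B gene CalpB had 82.6 CPM at 120 h AEL, against 170.1 CPM at 96 h AEL (2.06-fold, interval 1.93 to 2.195). The lectin gene lectin-24A had 87.9 CPM at 120 h AEL, against 172 CPM at 96 h AEL (1.95-fold, interval 1.84 to 2.08). In all 13 genes with 100 CPM or more were at least 1.5-fold lower. The others named by rank at this level were mt:ND3, CG9171, CR43855, CG42394 and CG3376, between 1.59-fold and 1.68-fold lower, and spok, given with the ring gland genes. Among the well counted genes at lower levels, the uncharacterised CG34054 was 2.73-fold lower, Cyt-b5-r 2.59-fold, CG43164 2.51-fold, dpr17, of a family of immunoglobulin-domain proteins, 2.49-fold, and cpo, an RNA-binding protein gene, 2.41-fold.

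None of the genes with most counts in either library passed 1.5-fold, but Ppn and regucalcin came close to it. At 120 h AEL the 5 most counted genes were mt:lrRNA, Ef1alpha48D, Hml, regucalcin and Tep4, and at 96 h AEL mt:lrRNA, Ef1alpha48D, Hml, Tep4 and Ppn. The translation factor gene Ef1alpha48D had 24034 CPM at 120 h AEL, against 22975 CPM at 96 h AEL. Hml, which encodes the clotting protein hemolectin and marks differentiating hemocytes, had 12191 CPM at 120 h AEL, against 15019 CPM at 96 h AEL. Ppn, for the matrix proteoglycan papilin, had 6602 CPM at 120 h AEL, against 9561 CPM at 96 h AEL, and was 1.45-fold lower at 120 h AEL (counting interval 1.44 to 1.46). In the other direction, regucalcin had 11607 CPM at 120 h AEL, against 8079.9 CPM at 96 h AEL and was 1.44-fold higher at 120 h AEL (counting interval 1.43 to 1.45).

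The labelled organ was checked through its defining markers, which were counted in both libraries at levels that ranged widely, with the niche gene hh the lowest. Of the hemocyte and niche markers with at least 1 CPM in either library, which leaves out hh, those past 1.5-fold were atilla and PPO3, each below 10 CPM. The GATA factor gene srp had 597 CPM at 120 h AEL, against 516 CPM at 96 h AEL, and He, a pan-hemocyte surface protein gene, 1101 CPM at 120 h AEL, against 1012 CPM at 96 h AEL. Of the prohemocyte genes, Tep4 had 10196 CPM at 120 h AEL, against 10739.9 CPM at 96 h AEL, and Ance, a peptidase gene, had 9681 CPM at 120 h AEL, against 7041 CPM at 96 h AEL. The receptor gene dome had 44.8 CPM at 120 h AEL, against 43.3 CPM at 96 h AEL, and shg, for E-cadherin, 17.3 CPM at 120 h AEL, against 24.8 CPM at 96 h AEL. The last was 1.44-fold lower and Ance 1.37-fold higher, so the 4 prohemocyte genes lay on both sides of no change. All 5 plasmatocyte markers were higher by less than 1.5-fold: Pxn (1.17-fold), NimC1 (1.39-fold), eater (1.38-fold), vkg (1.27-fold) and Cg25C (1.34-fold), the last pair being the type IV collagen genes. Their summed level was 23957 CPM at 120 h AEL and 18818 CPM at 96 h AEL. Hml, which the study also used to define plasmatocytes and which is set here among pan-hemocyte markers, was lower, with a log2 ratio of -0.30.

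Crystal cell genes were also higher by small folds, with 9864 CPM at 120 h AEL, against 7465 CPM at 96 h AEL for PPO2, 6612 against 5866 CPM for PPO1 and 22.1 against 18.7 CPM for lz, their Runx factor. Of the lamellocyte markers atilla had 258 counts at 120 h AEL, against 140 counts at 96 h AEL (2.08-fold, interval 1.54 to 2.82) and PPO3 321 counts at 120 h AEL, against 211 counts at 96 h AEL (1.72-fold, interval 1.33 to 2.22), both below 10 CPM, while the integrin gene mys, which other cells share, was 1.27-fold higher. In the niche, Antp, kn and mthl7 differed by 1.16-fold, 1.18-fold and 1.16-fold, and the signal gene hh had only 14 counts at 120 h AEL, against 34 counts at 96 h AEL. The interval for hh, 0.849- to 6.14-fold lower, spans no change.

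Hemocyte classes were described through lists that the study drew from its single cells. The first 30 names of each list were taken, for 9 cell types and 8 subclusters of prohemocytes (PH) and plasmatocytes (PM). These lists are not independent of the libraries. The cells came from the same organ and ages, and the study used its bulk values to choose the genes it clustered on. Some lists, the adipohemocyte list among them, come from cells that the study saw almost only at 120 h AEL. A higher level of such a list was thus partly set in advance, and whether its class changed was not tested. The study's other subclusters, among them PM3 and PM4, which it saw almost only at 120 h AEL, were not surveyed. Counts below can be read against 3.04% of well counted genes higher and 1.29% lower at 1.5-fold. Of the 23 well counted genes of the adipohemocyte list, a cell type named for its lipid genes, 21 were at least 1.5-fold higher, 16 of them 2-fold, and none was lower by any amount, with a median log2 ratio of 1.25. They included Ama, Jabba, Cpr49Ac, Gs1 (glutamine synthetase, 99.4 against 22.1 CPM), Hsp23, hid and betaTub60D. On a short list of adipohemocyte markers named in the study (Sirup, Lsd-2, LpR2, crq and eater) all 5 were higher, with Sirup (1.703-fold) and crq (2.15-fold) past 1.5-fold. The summed level of the signature list was 3254 CPM at 120 h AEL, 1562 CPM at 96 h AEL and 648 CPM at 72 h AEL.

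The list of subcluster PH 6 came next, with 12 of 16 well counted genes at least 1.5-fold higher, 1 lower and a median of 1.22. Among them were Obp99b, Jabba, Dtg, Hsp23, sn and Hsp27. It shared 15 of its 30 names, 50% of each list, with the ring gland list, of which 8 genes were well counted. At least 1.5-fold higher were 4 of these 8 (betaTub60D, Dtg, Obp99b and CG9989), and 2 were lower (CG4408 and if). In the PM 2 list all 27 well counted genes were above 0, 11 of them by 1.5-fold, with a median of 0.51. Its members past 1.5-fold included Ect3, vir-1, Mmp1, yellow-f, Oat and kek1, while NimC1 (0.48 log2), Cg25C (0.42) and regucalcin (0.52) differed by less. The lamellocyte list had 8 of 18 and the PH 5 list 8 of 24 well counted genes at least 1.5-fold higher, with medians of 0.48 and 0.37 and none at least 1.5-fold lower. Like adipohemocytes, the cells behind the PH 6, PM 2, PH 5 and lamellocyte lists were seen by the study almost only at 120 h AEL. The higher levels of these lists are therefore a description only.

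The PH 4 and PM 1 lists had members past 1.5-fold on the lower side and none on the higher. PH 4 had 6 of 26 well counted genes at least 1.5-fold lower, none higher and a median of -0.25: CG13160, CG8157, CR43855, Swim, CG42394 and GstD3. PM 1 had 5 of 29 lower, namely CG34054, Nplp2, lectin-24A, CG8157 and CG6084, and a median of 0.02. Its matrix genes included Cg25C, vkg and Glt, with log2 ratios of 0.42, 0.35 and 0.50, and Ppn, with -0.53. PM 1 and PM 2 shared 8 names, 26.7% of each list. In the dorsal vessel list 5 of 17 well counted genes were at least 1.5-fold lower (Mlc2, Argk, Mlp84B, Mlc1 and Mlp60A) and 1 higher (ltl), with a median of -0.52. Fewer genes passed 1.5-fold in the other lists: plasmatocyte 2 of 28 higher, crystal cell 3 of 26 higher, PSC 3 of 20 higher, PH 3 2 of 27 higher, and in PH, PH 2 and the GST-rich list at most 2 each way. In the PH 1 list 24 of 26 members were lower, but only 4 were well counted, of which 3 were at least 1.5-fold lower (pncr002:3R, CG43164 and Fas2).

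**Figure D3:**
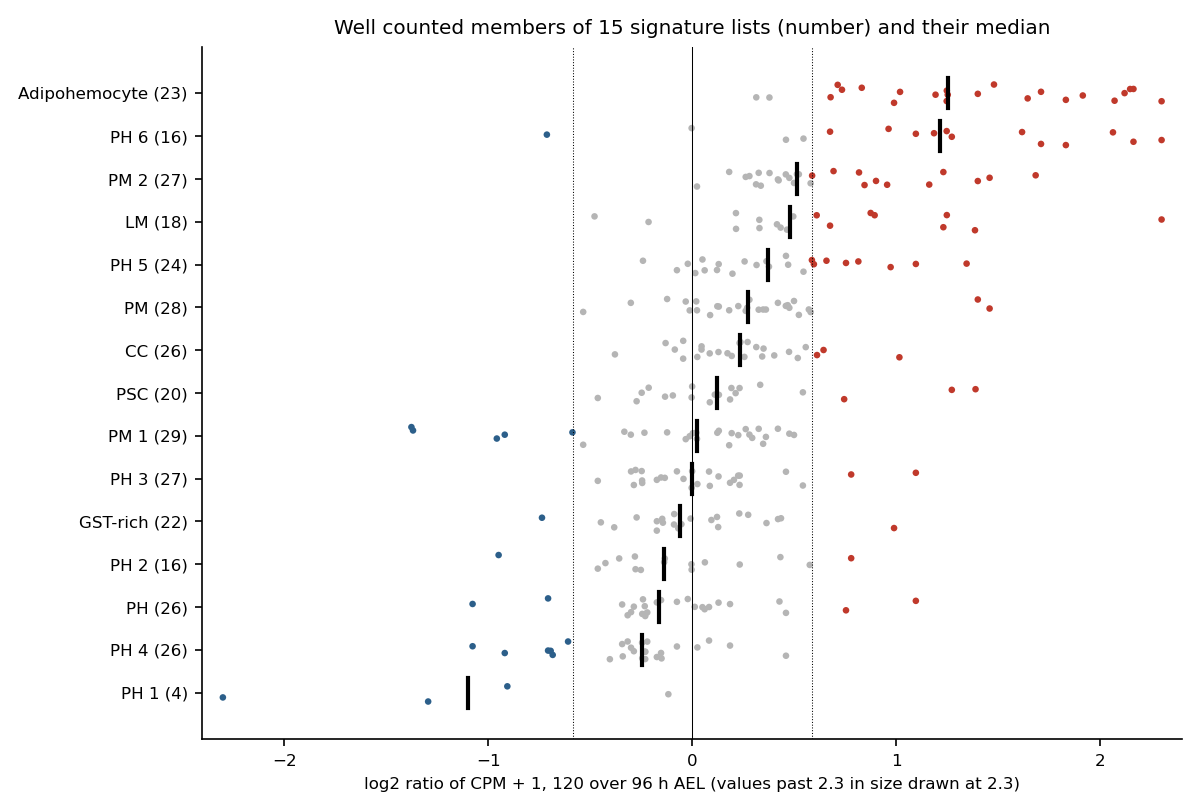
Each point is a well counted gene of a signature list placed by its log2 ratio, 120 over 96 h AEL (red at least 1.5-fold higher, blue at least 1.5-fold lower, grey between), bars are list medians, and the number of genes stands after each name. The adipohemocyte and PH 6 lists have medians of 1.25 and 1.22, PM 2 lies wholly above 0, and PH 4 and PH 1 lie mostly below it. The study saw the cells of the adipohemocyte, PH 6 and PM 2 lists almost only at 120 h AEL.

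On the list of ecdysone receptor and response genes, those past 1.5-fold were higher at 120 h AEL. Ecdysone binds a receptor of EcR and usp, which switches on early factors such as Eip74EF, Eip75B and br, and these switch on late genes. Of 18 well counted genes on the list, 14 were higher by any amount and 4 at least 1.5-fold, against none lower by that fold, and the median was 0.23. Over all well counted genes 49.4% were higher by any amount and 3.04% at least 1.5-fold. With the genes of lower counts included, 19 of the 32 list genes in the files were higher and 12 lower. Eip74EF, an ETS factor, had 196 CPM at 120 h AEL, against 116 CPM at 96 h AEL, and 4.07 CPM at 72 h AEL, and was 1.69-fold higher at 120 h AEL (counting interval 1.598 to 1.78). Eip75B, a nuclear receptor gene, had 138 CPM at 120 h AEL, against 86.7 CPM at 96 h AEL (1.59-fold, interval 1.49 to 1.696). Sox14 had 43.8 CPM at 120 h AEL, against 28.04 CPM at 96 h AEL (1.56-fold, interval 1.39 to 1.75), and Eip71CD had 14.03 CPM at 120 h AEL, against 7.65 CPM at 96 h AEL (1.83-fold, interval 1.49 to 2.28).

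The receptor gene EcR was 1.39-fold higher (149 CPM at 120 h AEL, against 107 CPM at 96 h AEL), its partner usp 1.17-fold, and br, the broad factor of metamorphosis, 1.27-fold (655 CPM at 120 h AEL, against 514 CPM at 96 h AEL). The competence factor ftz-f1 had 48.6 against 50.1 CPM, and the importer gene Oatp74D 252 against 230.2 CPM, at 120 against 96 h AEL. Genes often used as readouts of the hormone in other tissues were almost absent: ImpE1 had 14 against 20 counts, ImpL1 0 against 4 counts, Hr46 4 against 12 counts and Cyp18a1, which degrades the hormone, 2 against 21 counts. Of the 5 well counted genes of the juvenile hormone list, the hydrolase gene Jheh1 alone passed 1.5-fold (1.62-fold, interval 1.501 to 1.76).

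Nearly all cell cycle genes had slightly lower levels at 120 h AEL, none of them past 1.5-fold. Of 40 well counted mitosis genes 39 were lower, with a median log2 ratio of -0.29, and of 39 DNA replication genes 37 were lower, with a median of -0.24; over all well counted genes 50.6% were lower. Ndc80, of the kinetochore, had 22.8 CPM at 120 h AEL, against 33.9 CPM at 96 h AEL (-0.55 log2) and lay at the low end. The kinesin gene pav (-0.49), CycB (-0.43), stg, for the Cdc25 phosphatase (-0.43), and polo (-0.38) followed. CycB had 113 CPM at 120 h AEL, against 153 CPM at 96 h AEL, a difference of 1.35-fold, interval 1.27 to 1.43. Among replication genes Orc1 (-0.38), Mcm2 (-0.34) and PCNA (-0.24) were lower, and Psf3 (0.18) and E2f1 (0.07) were the 2 that were not. At the step before, 96 over 72 h AEL, which shares the 96 h AEL library, the medians of these same genes were 0.08 for mitosis and -0.07 for replication.

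Most ribosome biogenesis genes were slightly lower at 120 h AEL and most ribosomal protein genes slightly higher, again with none past 1.5-fold. Of 26 well counted ribosome biogenesis genes 24 were lower (median -0.21), Surf6 being lowest at -0.50, and the nucleolar genes nop5 and Nop56 had 295 against 347 CPM and 233 against 271 CPM at 120 against 96 h AEL. The Myc gene dm had 283 CPM at 120 h AEL, against 277 CPM at 96 h AEL. In contrast 81 of 82 cytosolic ribosomal protein genes were higher, with a median of 0.13, a summed level of 159349 CPM at 120 h AEL and 145610 CPM at 96 h AEL, and a narrow range of -0.03 to 0.38. Under scaling by total counts 79 of the 82 were higher. Mitochondrial ribosomal protein genes went the other way, 63 of 69 lower (median -0.15), as did 19 of 22 aminoacyl-tRNA synthetase genes (median -0.15).

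Other housekeeping lists had smaller medians: 28 of 31 genes of the citric acid cycle and the nuclear-coded respiratory chain were lower (median -0.10), 33 of 39 of ER translocation and secretion (-0.08) and 29 of 32 of the proteasome (-0.06). All 10 well counted genes of the mitochondrial genome were lower, with a median of -0.39, and mt:ND3 was the one past 1.5-fold, with 72.9 CPM at 120 h AEL, against 122 CPM at 96 h AEL. Their summed level with the low ones was 57081 CPM at 120 h AEL and 67074 CPM at 96 h AEL, and mt:lrRNA, at 37337 against 42900.4 CPM, made up most of it.

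**Figure D4:**
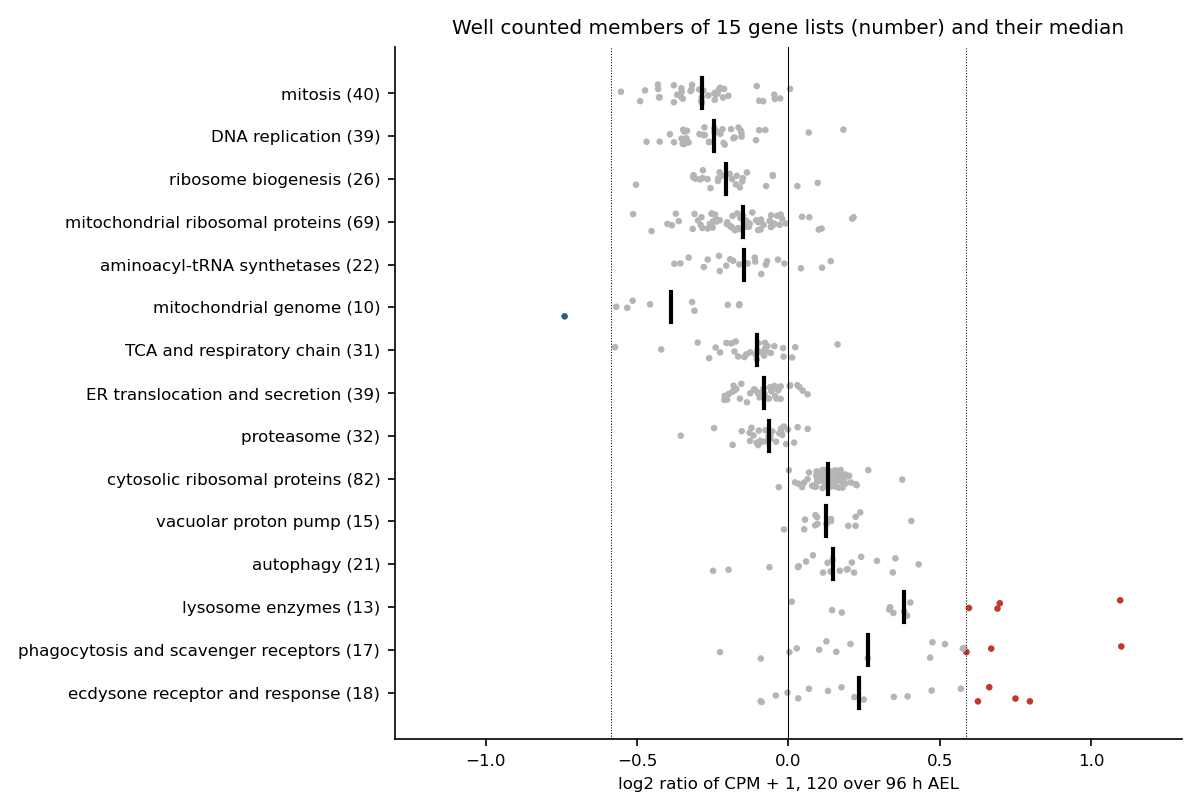
Well counted genes of 15 lists by log2 ratio, 120 over 96 h AEL, with list medians as bars and gene numbers after the names; red and blue mark genes at least 1.5-fold higher and lower. Mitosis and DNA replication genes cluster at medians of -0.29 and -0.24, cytosolic ribosomal protein genes form a tight group at 0.13, and lysosome enzyme genes all lie above 0 with a median of 0.38.

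Most lysosome, autophagy and engulfment genes were higher at 120 h AEL, unlike those of the proteasome. Of all well counted genes 49.4% were higher by any amount and 3.04% at least 1.5-fold. All 13 well counted lysosome enzyme genes were higher under TMM scaling, 12 of them under total counts, with a median of 0.38, and 4 passed 1.5-fold, 3 of them under total counts, where CtsB1 was short of it. These were the protease genes CtsB1 (854 CPM at 120 h AEL, against 565 CPM at 96 h AEL, 1.51-fold, interval 1.47 to 1.55) and cathD (810.3 CPM at 120 h AEL, against 499 CPM at 96 h AEL, 1.62-fold, interval 1.58 to 1.67). The others were the sterol carrier gene Npc2a (202 CPM at 120 h AEL, against 125 CPM at 96 h AEL, 1.62-fold, interval 1.54 to 1.71) and the lipase gene Lip4 (14.7 CPM at 120 h AEL, against 6.34 CPM at 96 h AEL, 2.32-fold, interval 1.85 to 2.903). Of 15 well counted genes of the vacuolar proton pump, which acidifies lysosomes, 14 were higher (median 0.13), and of 21 autophagy genes 18 were higher (median 0.15), among them Atg4a (0.43 log2), Rab7 (0.34) and Atg8a (0.29), but not Atg1 (-0.25).

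Among 17 well counted genes of phagocytosis and scavenger receptors 15 were higher (median 0.26). Counts here can be read against 49.4% of all well counted genes higher by any amount and 3.04% at least 1.5-fold. The CD36-type receptor gene crq, which binds apoptotic cells, had 239.9 CPM at 120 h AEL, against 111 CPM at 96 h AEL, and 20.5 CPM at 72 h AEL, and was 2.15-fold higher at 120 h AEL (counting interval 2.04 to 2.27). The engulfment receptor gene drpr had 359 CPM at 120 h AEL, against 225 CPM at 96 h AEL (1.59-fold, interval 1.53 to 1.66). Dscam1 had 20.4 CPM at 120 h AEL, against 13.2 CPM at 96 h AEL (1.54-fold, interval 1.305 to 1.82) and was short of the fold under total counts. Nimrod genes stayed under the fold, with NimB4 at 1.496-fold, NimC1 at 1.39-fold and eater at 1.38-fold. Of 14 well counted apoptosis genes 13 were higher by some amount, and 1 passed 1.5-fold: hid, an inhibitor of the caspase inhibitor Diap1, with 27.9 CPM at 120 h AEL, against 13.5 CPM at 96 h AEL (2.06-fold, interval 1.76 to 2.405). The caspase genes Dcp-1, Dronc and Drice were 1.49-fold, 1.22-fold and 1.04-fold higher, while rpr and grim had at most 12 counts in either library.

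Immune effectors differed gene by gene. In the lectin list, besides lectin-22C and lectin-24A, lectin-28C had 192 CPM at 120 h AEL, against 111 CPM at 96 h AEL (1.73-fold, interval 1.64 to 1.83) after 0.931 CPM at 72 h AEL. The antimicrobial peptide gene Dro (drosocin) was the 1 well counted gene of its list, with 33.1 CPM at 120 h AEL, against 12.4 CPM at 96 h AEL (2.66-fold, interval 2.28 to 3.12). For melanization, yellow-f, a dopachrome conversion enzyme gene, had 138 CPM at 120 h AEL, against 60.9 CPM at 96 h AEL (2.26-fold, interval 2.101 to 2.43). The serine protease gene MP1 had 211 CPM at 120 h AEL, against 123 CPM at 96 h AEL (1.72-fold, interval 1.63 to 1.81), and the plasmatocyte list gene vir-1 had 88.8 CPM at 120 h AEL, against 31.7 CPM at 96 h AEL (2.801-fold, interval 2.54 to 3.09).

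Matrix remodelling and adhesion genes held both directions. The matrix metalloprotease gene Mmp1 had 45.4 CPM at 120 h AEL, against 18.8 CPM at 96 h AEL (2.42-fold, interval 2.13 to 2.75). Its relative Mmp2 had 48.6 CPM at 120 h AEL, against 28.9 CPM at 96 h AEL (1.68-fold, interval 1.51 to 1.88). Integrin genes scb (alphaPS3, 2.01-fold, interval 1.696 to 2.396) and ItgalphaPS4 (1.83-fold, interval 1.44 to 2.34) were higher, and if (alphaPS2, 1.65-fold, interval 1.295 to 2.11), Fas2 (1.99-fold, interval 1.603 to 2.47) and Fas1 (2.13-fold, interval 1.78 to 2.55) were lower. Of 17 well counted genes of basement membrane and matrix only Mp was at least 1.5-fold lower, and the list median was 0.08. In the cytoskeleton list sn and betaTub60D (135 CPM at 120 h AEL, against 56.2 CPM at 96 h AEL, 2.399-fold, interval 2.23 to 2.58) were higher and Act57B, a muscle actin gene, lower (1.57-fold, interval 1.49 to 1.66). Idgf4, of the imaginal disc growth factors, was 1.58-fold lower at 120 h AEL (counting interval 1.31 to 1.92).

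Metabolic and stress genes past 1.5-fold were few. The fatty acid binding protein gene fabp had 499.6 CPM at 120 h AEL, against 282 CPM at 96 h AEL (1.77-fold, interval 1.71 to 1.83), and the glycolytic gene Tpi had 171 CPM at 120 h AEL, against 114 CPM at 96 h AEL (1.51-fold, interval 1.42 to 1.59). Under total counts Tpi was short of 1.5-fold. Sirup had 16.9 CPM at 120 h AEL, against 9.92 CPM at 96 h AEL, and Ilp6, an insulin-like peptide gene, had 20.02 CPM at 120 h AEL, against 11.2 CPM at 96 h AEL (1.78-fold, interval 1.49 to 2.12). Hsp27 joined Hsp23 among the small heat shock protein genes, with 249.6 CPM at 120 h AEL, against 109 CPM at 96 h AEL (2.29-fold, interval 2.17 to 2.41), and Hsp26 had 200 against 86 counts at 120 against 96 h AEL. The inducible Hsp70 genes Hsp70Aa, Hsp70Ab, Hsp70Ba, Hsp70Bb, Hsp70Bbb and Hsp70Bc had at most 2 counts in either library, and Hsp83 (-0.26 log2) and Hsc70-5 (-0.32) were lower. Of the glutathione list 3 of 23 well counted genes were at least 1.5-fold lower, GstD7, GstE6 (1.68-fold, interval 1.53 to 1.85) and GstD3 (1.53-fold, interval 1.44 to 1.62), and none higher; reads shared between neighbouring Gst copies may have been split or dropped. Cyp6w1 was 1.89-fold lower.

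The well counted genes of the signalling lists hardly moved. None of those of JAK-STAT (8), Notch (15), Hedgehog and BMP (18) or Toll and Imd (21) passed 1.5-fold, and their medians lay between 0.02 and 0.10. This leaves out genes below 10 CPM. Of the 15 well counted Notch genes 12 were higher and 3 lower, but of all 21 members 12 were higher and 9 lower. Notch pathway genes with few counts that were lower are given at the end. In the Wingless list the receptor gene fz2 was lower (14.5 CPM at 120 h AEL, against 22.3 CPM at 96 h AEL, 1.54-fold, interval 1.31 to 1.81), but short of the fold with DESeq2 size factors. In that of EGF, FGF and Pvr the EGF receptor inhibitor gene kek1 was higher (83.97 CPM at 120 h AEL, against 46.3 CPM at 96 h AEL, 1.81-fold, interval 1.66 to 1.98). Of 31 well counted blood transcription factor genes 1 was past 1.5-fold, vri, a bZIP factor also known from the circadian clock, with 68.4 CPM at 120 h AEL, against 31.3 CPM at 96 h AEL (2.19-fold, interval 1.98 to 2.42). Of 13 well counted genes of sex determination and dosage compensation dsx alone passed it, with 23.2 CPM at 120 h AEL, against 8.66 CPM at 96 h AEL (2.67-fold, interval 2.22 to 3.24), while Sxl had 195 against 181 CPM and the male-specific RNA gene roX1 575 against 552 CPM at 120 against 96 h AEL.

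Genes of tissues other than blood also differed between the libraries, and their part in the differences above was not tested. Fat body markers were present in both libraries. Lsp1alpha, Lsp1beta and Lsp1gamma, for the larval serum proteins, had 1292 against 996 counts, 4711 against 5966 counts and 4614 against 3949 counts at 120 against 96 h AEL. Lsp2 had 124 against 24 counts, and Fbp2 had 600 against 214 counts (3.16-fold, interval 2.53 to 3.98). The 6 markers summed to 445 CPM at 120 h AEL and 297 CPM at 96 h AEL, and Fbp1 accounted for 105 CPM of the first sum. On the wider fat body list 4 of 9 well counted genes were at least 1.5-fold higher (Fbp1, Obp99b, Ilp6 and Fbp2). Of 5 well counted oenocyte list genes Cyp4g1 alone passed that fold, and the list's median was -0.00.

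Genes of the ring gland, which was to be cut away at both ages, differed in both directions. On the list of known ring gland genes 4 of 7 well counted genes were at least 1.5-fold lower and the other 3 were higher by less. On the signature list of the study 16 of 23 members were higher, with a summed level of 368 CPM at 120 h AEL and 194 CPM at 96 h AEL. Of its 8 well counted genes 4 were higher and 4 lower, with a median of 0.62. That median depended on the names taken, at -0.41 with the first 15 and 1.02 with the first 60. The ring gland makes ecdysone through a chain of oxidases and P450 enzymes. The P450 gene spok had 50.3 CPM at 120 h AEL, against 139 CPM at 96 h AEL and 206 CPM at 72 h AEL. It was 2.77-fold lower at 120 h AEL (counting interval 2.56 to 2.995). The genes phm (41.8 CPM at 120 h AEL, against 86.3 CPM at 96 h AEL, 2.07-fold, interval 1.89 to 2.26) and sad (22.1 CPM at 120 h AEL, against 43.1 CPM at 96 h AEL, 1.95-fold, interval 1.72 to 2.22) were lower as well. So was nvd (10.1 CPM at 120 h AEL, against 19.6 CPM at 96 h AEL, 1.94-fold, interval 1.61 to 2.35). The gene dib had 36 against 44 counts, and sro, a dehydrogenase gene of the same pathway, was higher (52.02 CPM at 120 h AEL, against 37.02 CPM at 96 h AEL, 1.41-fold, interval 1.27 to 1.56). Of the glands attached to it, the juvenile hormone enzyme gene jhamt had 90 against 312 counts and the adipokinetic hormone gene Akh 148 against 352 counts, all at 120 against 96 h AEL. The 5 defining ring gland markers summed to 125 CPM at 120 h AEL and 289 CPM at 96 h AEL.

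Of 17 well counted genes of the dorsal vessel and muscle list 12 were lower and 3 at least 1.5-fold, Mlc1 (7.002 CPM at 120 h AEL, against 15.3 CPM at 96 h AEL), Mlc2 (33.4 CPM at 120 h AEL, against 50.8 CPM at 96 h AEL) and Act57B (137 CPM at 120 h AEL, against 215 CPM at 96 h AEL), of which Mlc2 was short of the fold with DESeq2 size factors, whereas Zasp52 was higher (92.4 CPM at 120 h AEL, against 48.2 CPM at 96 h AEL, 1.92-fold, interval 1.76 to 2.08). The list median was -0.32, but 0.15 where 50 CPM was required. The 6 defining markers summed to 96.8 CPM at 120 h AEL and 138 CPM at 96 h AEL, with the heart matrix gene prc at 6 against 51 counts. Neuronal markers were low, nSyb with 7 against 16 counts, Syt1 with 17 against 18 counts and brp with 4 against 0 counts, and the salivary glue genes Sgs1, Sgs3, Sgs4, Sgs5, Sgs7 and Sgs8 had at most 10 counts in either library. The midgut enzyme genes alphaTry, betaTry, Amy-p and Jon65Aiii had none in either. Of the cuticle markers Lcp1 had 292 against 233 counts and Lcp2 93 against 157 counts, the chitinase gene Cht3 was 1.796-fold lower, and the tracheal list gene vvl 1.75-fold lower.

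Of the 6 genes at least 4-fold lower among all 7704 genes, 4 (dac, eya, toy and Optix) encode factors that specify the eye, and the list of such factors was made after these values were seen. Its 16 genes summed to 1.59 CPM at 120 h AEL, 48.9 CPM at 96 h AEL and 60.3 CPM at 72 h AEL. None was higher at 120 h AEL, 15 were lower, and 8 had no count there, against 1 at 96 h AEL. The phosphatase and cofactor gene eya had 0 counts at 120 h AEL, against 298 counts at 96 h AEL, at least 88.1-fold lower. The Pax6 gene toy had 6 against 319 counts, Optix 4 against 145 counts, the second Pax6 gene ey 13 against 124 counts, and so 12 against 90 counts. The fifth was pncr002:3R and the sixth rst, which encodes the cell adhesion protein roughest, with 34 against 268 counts. A like list of 18 wing and notum factors had 12 genes higher and 6 lower by any amount, and a summed level of 46.4 CPM at 120 h AEL, 42.1 CPM at 96 h AEL and 73.7 CPM at 72 h AEL. Among the higher ones were nub with 64 against 0 counts and vg with 37 against 0 counts. The gene ap had 60 against 10 counts, while caup had 22 against 68 counts, mirr 20 against 48 counts and rn 89 against 154 counts.

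**Figure D5:**
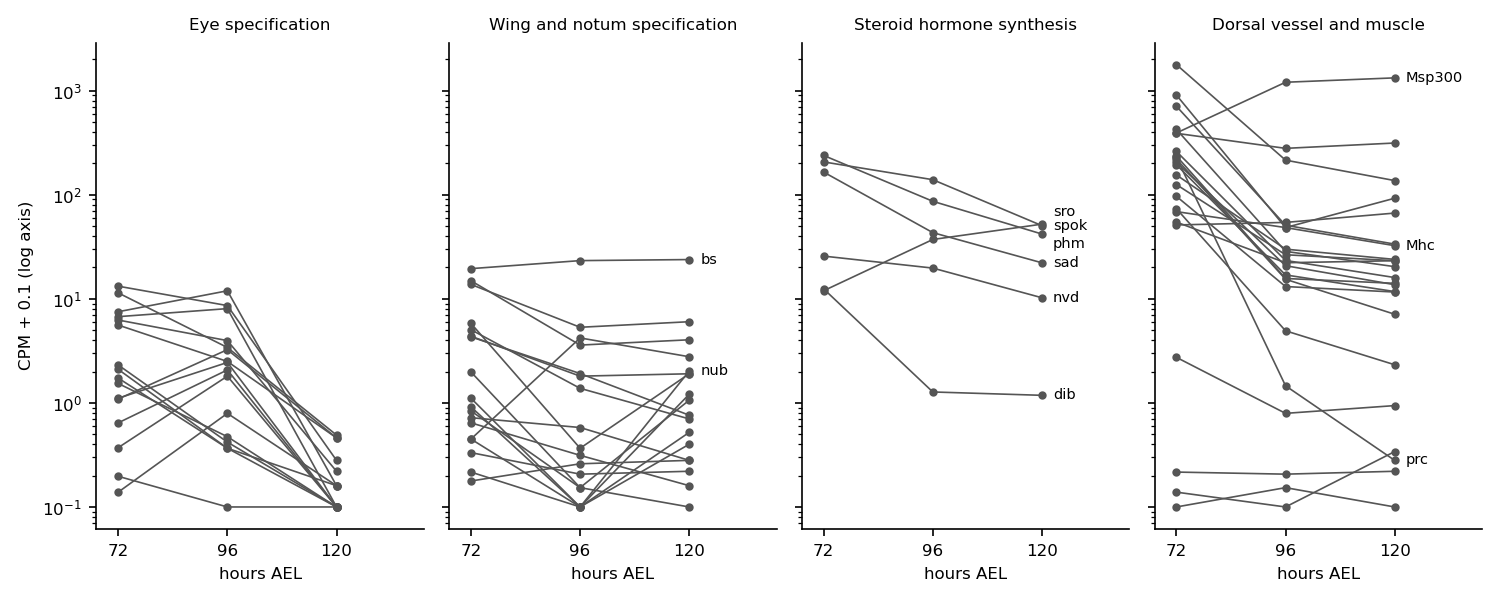
Scaled level (CPM + 0.1, log axis) of single genes in the 72, 96 and 120 h AEL libraries, each line a gene, for 16 eye factors, 18 wing and notum factors, 6 steroid synthesis genes and 23 dorsal vessel and muscle genes. Every eye factor with counts at 96 h AEL lies lower at 120 h AEL, nub is among the wing factors that reappear, and spok, phm, sad and nvd decline while sro does not.

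Without the genes of the lists of other tissues and of the dorsal vessel and ring gland signature lists, a choice made after the data were seen, 170 genes were at least 1.5-fold higher and 62 lower, 59 and 18 at 2-fold, and 12 and 3 at 4-fold. The eye list and the wing and notum list were not among those removed. Of their genes only those that a removed list also held, such as dac, were left out. The medians of the adipohemocyte, PH 6 and PM 2 lists were then 1.25, 1.22 and 0.51. Only listed genes were taken out, and other RNA of those tissues stays in, so the part of other tissues in these medians was not tested.

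Position and length of the genes were compared last. Of the 67 genes at least 2-fold higher, 14 lay on chromosome arm 2L, 10 on 2R, 13 on 3L, 17 on 3R, 1 on 4 and 11 on X, and of the 22 lower genes 2, 5, 3, 8, 0 and 1, for those with an entry in the annotation. In the same order these chromosomes held 1019, 1199, 1112, 1411, 54 and 1009 well counted genes. The median log2 ratio of well counted genes was between -0.01 and 0.01 on each of these chromosomes. Median exonic length was 2281 bases for genes at least 1.5-fold higher, 2203 bases for those lower and 2278 bases for all well counted genes. In 4 groups of rising exonic length the median ratio ran between -0.02 and 0.02. From the shortest group to the longest, 41, 46, 50 and 40 genes were higher by 1.5-fold, and 21, 16, 8 and 28 were lower. Of the 67 genes, 30 (44.8%) stood on the first 30 names of any signature list, as did 6 of the 22 (27.3%), against 248 of the 5963 well counted genes (4.16%). The signature lists are not independent of these libraries, and some come from subclusters seen mostly at 120 h AEL, so these shares are a description only. Those named only by a CG or CR number made up 27 of the 67 (40.3%) and 4 of the 22 (18.2%), against 39.0% of well counted genes.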

How the data were processed

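Whole lymph gland lobes of Oregon-R larvae gave 1 bulk RNA library at each of 3 ages. The authors deposited gene counts, not normalized, as whole numbers per gene. The submitters' processing notes name FastQC 0.11.8, STAR 2.5.3a, featureCounts 1.6.0 and the BDGP6 build; the strand setting is not given in the sources used here. Depth was 49511614, 37922500 and 34278733 counts at 72, 96 and 120 h AEL, so 3 counts were worth 0.0606, 0.0791 and 0.0875 CPM.

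Counts were scaled with TMM factors from all 3 libraries (edgeR 4.0.16 in R 4.3.3) and expressed as CPM. The log2 ratio was taken on CPM + 1, so that folds of low genes are understated, and a gene counted as 1.5-, 2- or 4-fold by this ratio. Single-gene folds are ratios of scaled counts with no pseudocount, with exact 95% binomial intervals on counts divided by 2 (SciPy 1.17.1). A gene with no count in a library was set against a floor of 3 counts per library. No test was run, since each age has 1 library. The scripts were tested on simulated counts.

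Of 17490 gene IDs, 17216 were found in the BDGP6.54 annotation (Ensembl release 115), used for coordinates and exonic length, and the others are given no position. Gene lists numbered 66, of which 3 (eye, wing and notum, amino acid synthesis) were made after values were seen, and 7 of 1492 names were not found. The 17 signature lists are the first 30 names of each of the study's lists that was in full in the sources used here. Lists cut short were left out.

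Members, lists and thresholds were chosen with earlier results of these data known. Named genes are the 12 largest and 12 smallest ratios, the 10 largest and 10 smallest at 100 CPM or more, up to 4 members a direction past 1.5-fold of each list, the defining markers and the 5 most counted genes of every library. Alternatives were total-count scaling, DESeq2 1.42.0 size factors, pseudocounts of 0.1 and 5 CPM, a level of 50 CPM or none, whole intervals past the fold, thinning of the 96 h AEL library, undivided counts, and the first 15 or 60 signature names. Added after the data were seen were TMM factors from the 2 libraries alone and the removal of genes of other tissues.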

Additional observations from a re-analysis of the deposited data

How the results depend on the processing

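The counts of genes past a fold depended on the level required and, at 4-fold, on the pseudocount. With 50 CPM required, 88 genes were at least 1.5-fold higher and 26 lower, and 29 and 7 at 2-fold. With no level beyond 1 CPM these counts were 354 and 274, and 129 and 103. Where the whole interval had to lie past the fold, 45 genes were lower at 1.5-fold, 13 at 2-fold and 18 at 4-fold. With a pseudocount of 0.1 CPM 54 genes were higher and 52 lower at 4-fold, and with 5 CPM 6 were higher and 1 lower, and 14 were lower at 2-fold. Without the genes on the removed lists of other tissues 3 were lower at 4-fold. The median of cytosolic ribosomal protein genes was 0.10 with total counts, and that of the adipohemocyte list 0.98 with its first 60 names. Fewer genes enter where a higher level is required; for the rest the cause was not tested. No named fold past 1.5 changed direction under the alternatives run. In all, 39 gene counts, 281 folds and 422 medians moved by less than the limits set, against 17, 13 and 5 that moved further. Of the 281 folds, 98 stood under undivided counts, which alter the interval and not the fold, so they could not move. Scaling moved the median of all well counted genes to -0.03 with total counts and 0.01 with DESeq2 size factors. Under total counts 59 of the 67 genes 2-fold higher and 22 of the 22 lower were again past 2-fold, and under DESeq2 67 and 20. Of 91 named genes past 1.5-fold, 3 no longer passed with total counts (CtsB1, Dscam1 and Tpi), 2 with DESeq2 size factors (Mlc2 and fz2) and 10 with a pseudocount of 5 CPM (Dscam1, Idgf4, ItgalphaPS4, Mlc2, Sirup, Sox14, Tpi, fz2, if and vvl).

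No paired analysis was possible because each age has 1 library. Leaving out a replicate could not be done for the same reason. Depth limits the genes below 10 CPM, whose intervals are wide, and a difference there is named only where counts are given.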

Other observations

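A group of amino acid genes stood among those higher at 120 h AEL, and its list was made after that was seen, so its counts are a description only. Of 14 well counted genes 7 were at least 1.5-fold higher at 120 h AEL and 5 of them 2-fold, against 3.04% and 1.12% of all well counted genes, and none was lower by that fold. Gs1, a glutamine synthetase gene, had 99.4 CPM at 120 h AEL, against 22.1 CPM at 96 h AEL (4.49-fold, interval 4.03 to 5.02) and CG7470, for pyrroline-5-carboxylate synthase, 147 CPM at 120 h AEL, against 48.7 CPM at 96 h AEL (3.02-fold, interval 2.802 to 3.27). Oat, for ornithine aminotransferase, had 381 CPM at 120 h AEL, against 204 CPM at 96 h AEL (1.87-fold, interval 1.797 to 1.95). The serine synthesis genes CG6287 and aay had 1118 against 500 counts and 2022 against 1109 counts, and CG11899, below 10 CPM, 235 against 96 counts at 120 against 96 h AEL. Both CG6287 and Gs1 had been higher at 72 than at 96 h AEL, with 50.1 and 64.6 CPM at 72 h AEL, while Oat had 42.3 CPM there. Other members differed by less: Gdh had a log2 ratio of -0.26, Got1 of -0.02, Got2 of -0.24 and Cbs of -0.47.

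Genes of the PH 1 signature were low at both late ages and lower at 120 h AEL. Its 30 names summed to 94.5 CPM at 120 h AEL, 208 CPM at 96 h AEL and 719 CPM at 72 h AEL, and 24 of its 26 members were lower at 120 h AEL. Several belong to the Bearded and Enhancer of split families, known as Notch pathway genes and chosen here after their values were seen. Brd had 4 counts at 120 h AEL, against 80 counts at 96 h AEL, Tom 10 against 136 counts, E(spl)mgamma-HLH 10 against 72 counts and E(spl)m4-BFM 8 against 88 counts, so each was counted at most 10 times at 120 h AEL.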
